A study of Mus musculus with 26 samples.

Results

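The comparison described here set deathless (D-) S49 cells that had been kept for 24 h with 8-CPT-cAMP (3 arrays) against untreated D- cells (4 arrays), 7 of the 26 arrays of the series. S49 cells are an established line of mouse T lymphoma with the character of immature T cells, and D- is 1 variant line of them. Groups were taken from the source names of the samples, and genes were kept where their log2 intensity reached 5 on at least 3 of the 26 arrays, which left 7435 genes. The other arrays of the series held D- cells after 2 h and 6 h of the analogue and the parental wild-type (WT) line at the same times, and they are used here for the time course and for the test of whether a response differed between the lines. The treated cells of both lines received the same agent. Its dose is labelled 100 mM, a concentration whose unit may be an error. The untreated arrays are labelled as time 0, so 24 h of culture and 24 h of the analogue cannot be told apart. The labels call the replicates biological without naming separate cultures, so p-values rest on the spread between the arrays, which may be partly technical.

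Cyclic AMP (cAMP) frees the catalytic subunits of protein kinase A (PKA) from their regulatory subunits, and the freed kinase phosphorylates, among others, the transcription factor CREB, which binds cAMP response elements in promoters. 8-CPT-cAMP is a membrane-permeable analogue that enters the cell and activates the same pathway. In S49 cells, raised cAMP is known for stopping the cell cycle in G1 and then killing WT cells, while D- cells do not die, which gave the variant its name.

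Total RNA was amplified, labelled with biotin and hybridised to single-colour Affymetrix arrays. Values below are log2 of the deposited intensity, so a difference of 1 is a 2-fold change, and errors are standard errors (SE) of the limma fit unless SD is written. A gene was called at a Benjamini-Hochberg adjusted p under 0.05 over all 12724 probe sets tested. Of 10 T cell markers with a probe set, 8 had a mean of 5 or more in at least 1 of the 2 groups, Cd3d with 13.03 ± 0.17 in D- 24 h cells and 12.12 ± 0.06 in untreated D- cells among them (SD, n = 3 and 4). Cd5 and Cd247 lay under 5 in both. Of the markers of other cell types, 1 of 5 B cell, 3 of 7 myeloid, 1 of 3 erythroid, 1 of 6 stromal and endothelial and 0 of 2 NK cell markers reached 5. Across the series, the untreated replicates 1 and 2 and the first replicate of each treated group fell on one side of the main axis of within-group deviations, which held 38.8% of that variance. The labels name no such division. On that side lay D- 24 h replicate 1, whose 3' minus 5' difference of Gapdh control probes was -0.25, against -0.07 and 0.03 on the other D- 24 h arrays and -0.15 to 0.05 on the untreated arrays.

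After 24 h, 2581 of 7435 genes were called, which is 34.7% of those tested. Of these, 1271 (17.1%) were higher and 1310 (17.6%) lower in D- 24 h cells, and 441 and 224 of them by at least 2-fold. The median change over all genes was -0.02, so the list values below can be read against a centre near 0. Of the probe sets, 4250 were called (33.4%). That count was 5249 with the 2 sides of the axis as a block and 5080 on the arrays of the side with more arrays alone. It was 826 on the other side alone, where a single treated array was set against 2 untreated ones. Counts of 1 to 3 called genes in the lists below moved by at most 2 when each of the 7 arrays was left out in turn, and larger moves of other counts are given beside them. In bulk RNA, a change in the share of cells that express a gene and a change of its RNA per cell cannot be told apart.

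**Figure D1:**
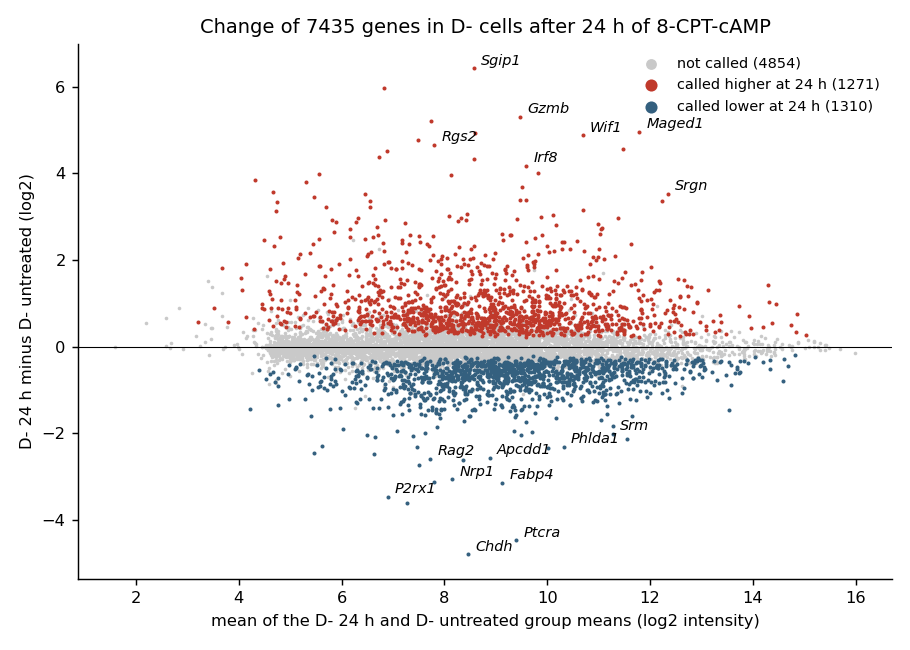
Change of each of the 7435 genes at 24 h in D- cells (D- 24 h minus D- untreated, log2) against its mean level in the 2 groups (log2 intensity). Each point is 1 gene, red where called higher (1271), blue where called lower (1310) and grey where not called (4854), and the called genes spread over the whole range of levels.

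The gains reached much further from 0 than the losses. The highest change was that of Sgip1, which encodes an endocytic adaptor protein, with 11.35, 12.11 and 11.91 in D- 24 h cells against 5.41, 4.99, 5.41 and 5.66 in untreated D- cells, a change of 6.42 ± 0.29 (adjusted p = 8.2e-13). Maged1, a MAGE family adaptor protein, read 13.66, 14.72 and 14.43 after 24 h and 9.38, 9.25, 9.32 and 9.29 untreated (4.96 ± 0.28). In both genes replicate 1 was the lowest treated array, and it lay 5.69 and 4.28 above the highest untreated array. Wif1, a secreted inhibitor of Wnt ligands, rose by 4.87 ± 0.28, with 12.93, 13.14 and 13.32 against 8.20, 8.54, 7.78 and 8.50.

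Tnfrsf18, the costimulatory receptor GITR, had 9.14, 11.25 and 10.59 in D- 24 h cells and 5.80, 5.48, 4.97 and 4.29 in untreated ones, where it was at the edge of detection (5.20 ± 0.42, adjusted p = 6.3e-09). Lmna, which encodes the nuclear lamins A and C, was under 5 on every untreated array and read 9.88, 9.64 and 9.92 after treatment. Its change is therefore given as a bound, at least 4.81, for this probe set. The other tested probe set of Lmna was also called higher, with a smaller change of 1.49. The other genes among the 15 with the highest changes were Gzmb, Olig3, Tktl1, Rgs2, Amot, Lgals9, Irf8, Tceal1, Pld3 and Ms4a6b. Olig3, a basic helix-loop-helix factor, rose by 4.92 and Tktl1, a transketolase-like protein, by 4.77. Lgals9, the lectin galectin-9, rose by 4.32 and Pld3, a lysosomal nuclease, by 4.00. Amot, a junction scaffold protein, rose by 4.56 and Ms4a6b, a membrane protein of the MS4A family, by 3.95. The other Amot probe sets changed by 2.43, which was called, and by 0.03, which was not. Tceal1, a transcription elongation factor-like protein, had an untreated mean under 5 and rose by at least 4.15.

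Chdh, the mitochondrial choline dehydrogenase, had the lowest change of all genes, with 6.24, 5.84 and 6.10 in D- 24 h cells against 10.74, 10.58, 11.03 and 11.07 in untreated D- cells, a change of -4.79 ± 0.25 (adjusted p = 1.1e-11). The nearest treated and untreated arrays were 4.34 apart. Fabp4, a fatty acid binding protein, read 7.69, 8.08 and 6.91 after 24 h and 12.09, 10.52, 10.25 and 9.93 untreated (-3.14 ± 0.57), and its first untreated replicate stood above the other 3. P2rx1, an ATP-gated cation channel, fell by 3.46. Nrp1, a co-receptor for semaphorins and VEGF, fell by 3.06, and Apcdd1, a membrane inhibitor of Wnt signalling, fell by 2.57. Phlda1, a pleckstrin homology domain protein, fell by 2.31 ± 0.23.

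Ptcra, Ighm, Rag2, Rgl3, Ccnb1ip1, Iftap, Zdhhc14, Inafm2 and Ifi202b completed the 15 lowest. Ptcra and Rag2 are described with the T cell genes below. Rgl3, an exchange factor for Ral GTPases, fell by 3.13, and Zdhhc14, a palmitoyltransferase, by 2.33. Ighm, the heavy chain of IgM and a marker of B cells, stood at 5.17, 5.15 and 6.10 after treatment and 7.64, 8.10, 10.38 and 10.23 untreated (-3.61 ± 0.71), and the 2 untreated replicates 3 and 4 were above the other 2. Of its 4 other probe sets, 1 was also called lower, with means of 2.90 ± 0.26 in D- 24 h cells, under the limit of 5, and 9.41 ± 1.84 in untreated cells (SD, n = 3 and 4), and 3 were not called, with changes between -0.03 and 0.00.

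Promoter windows of 5 genes that rose are shown because they hold the cAMP response element, the sequence CREB binds, in its full form TGACGTCA or its short form TGACG. They are read in the direction of transcription from RefSeq's 250 bases before the start of the gene on GRCm38.p6, with the element in capitals (CGTCA is the short form on the opposite strand), and each line covers 100 bases of that stretch.
Fos: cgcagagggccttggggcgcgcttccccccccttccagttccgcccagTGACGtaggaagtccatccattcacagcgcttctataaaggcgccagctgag
Nr4a1: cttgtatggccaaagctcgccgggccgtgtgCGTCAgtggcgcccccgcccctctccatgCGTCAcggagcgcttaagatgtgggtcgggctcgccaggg
Rgs2: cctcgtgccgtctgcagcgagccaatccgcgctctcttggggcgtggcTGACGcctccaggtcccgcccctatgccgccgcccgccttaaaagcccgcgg
Dusp1: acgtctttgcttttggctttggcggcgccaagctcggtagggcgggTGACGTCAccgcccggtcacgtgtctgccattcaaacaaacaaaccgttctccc
Prkar1a: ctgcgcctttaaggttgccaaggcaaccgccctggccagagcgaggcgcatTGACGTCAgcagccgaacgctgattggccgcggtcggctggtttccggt
Fos lies at chr12:85473776-85473875 (plus strand), Nr4a1 at chr15:101266746-101266845 (plus strand), Rgs2 at chr1:144004165-144004264 (minus strand), Dusp1 at chr17:26508562-26508661 (minus strand) and Prkar1a at chr11:109650849-109650948 (plus strand). The element ended 36 bases upstream of the annotated start in Nr4a1 for the copy nearest to it, 42 in Prkar1a, 62 in Fos, 63 in Rgs2 and 136 in Dusp1. Prkar1a has 6 such windows, and the first that held the element is shown.

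Of the 15 tested members of a list of cAMP-induced and CREB target genes, 8 were called higher and 0 lower in D- 24 h cells, with a median change of 1.12. The list was made of genes known for this response. Fos, an immediate early transcription factor whose promoter is the first one shown, was under 5 on all untreated arrays and read 7.16, 7.04 and 7.74 after 24 h, a gain of at least 2.31 (adjusted p = 1.0e-06). Rgs2, which shuts off G protein signalling, had 9.64, 10.24 and 10.50 in D- 24 h cells against 5.56, 5.26, 5.38 and 5.71 in untreated cells (4.65 ± 0.33). Nr4a1, an orphan nuclear receptor, had 9.47, 9.97 and 9.80 against 7.13, 7.12, 7.78 and 7.64 (2.33 ± 0.29). The lowest treated array stood above the highest untreated one by 2.41, 3.93 and 1.69 in these genes.

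Dusp1, a phosphatase that inactivates MAP kinases and carries the full element, read 7.73, 8.69 and 8.77 in D- 24 h cells and 5.98, 6.21, 5.70 and 5.90 in untreated cells (2.45 ± 0.42, adjusted p = 1.1e-04). Crem, whose inducible product represses CREB targets, had 5.53, 8.59 and 7.68 after 24 h and under 5 on every untreated array, at least 2.27 higher, with D- 24 h replicate 1 only just above the untreated arrays. The clock gene Per1 had 6.70, 8.24 and 8.02 against 6.23, 6.36, 6.54 and 6.99, and the groups overlapped. Its change of 1.12 ± 0.31 (adjusted p = 0.0069) was 0.83 with an adjusted p of 0.073 without D- 24 h replicate 2. Cited2, a CBP-binding coregulator, and Ier2, an immediate early gene, were the other members called higher, at 1.44 and 0.61. Leaving out any of 5 of the 7 arrays ended the call of Ier2. Pde4b, a phosphodiesterase that degrades cAMP, was at 5.36 ± 0.61 and 5.02 ± 0.18 (SD) and was not called.

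Earlier times of the same cells put these levels in order, with the caution that the 2 h, 6 h and 24 h comparisons share the untreated arrays. Fos changed by 6.22 at 2 h and 3.43 at 6 h as fitted values, and had means of 10.31, 7.51 and 7.31 at 2, 6 and 24 h. Nr4a1 had 12.68 ± 0.34, 10.60 ± 0.36 and 9.75 ± 0.25 (SD) at those times, and Dusp1 10.28 ± 0.11, 8.87 ± 0.52 and 8.40 ± 0.58. For each of these the 2 h mean was the highest of the 3 and the 24 h mean remained above the untreated one. Rgs2 had its highest mean at 2 h as well (11.37 ± 0.23), while its 6 h and 24 h means, 9.87 ± 0.16 and 10.13 ± 0.44, lay within their SDs of each other. A different group of genes rose late. Mxd4 had means of 8.27, 9.06 and 11.20 at 2, 6 and 24 h and 8.62 untreated, and Tktl1 had 4.68, 7.03 and 9.87, against 5.11 untreated.

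**Figure D2:**
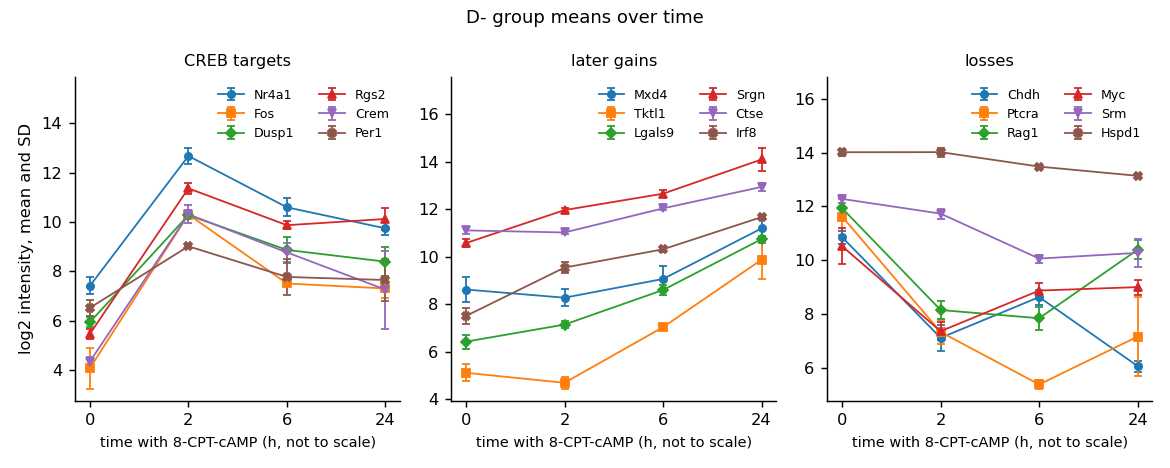
Group means in D- cells (log2 intensity, bars are SD, n = 4 at 0 h and 3 at 2, 6 and 24 h) against time with 8-CPT-cAMP, for 6 CREB targets, 6 genes with their highest mean at 24 h and 6 genes called lower at 24 h. CREB targets have their highest mean at 2 h, as Nr4a1 with 12.68, while Mxd4, Tktl1, Lgals9, Srgn, Ctse and Irf8 have theirs at 24 h.

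The components of the pathway itself had a smaller median change than the target list, which was made of genes known to respond. Of 17 tested genes for PKA subunits, cyclases, phosphodiesterases and cAMP effectors, 6 were called higher and 0 lower (median 0.17). Rapgef3, the exchange protein Epac1 that cAMP activates directly, had 12.19, 12.14 and 12.02 in D- 24 h cells and 10.18, 10.49, 9.94 and 9.81 in untreated cells (2.01 ± 0.32, adjusted p = 3.8e-05). Prkar1a, the regulatory subunit that holds PKA inactive and whose promoter carries a full element, read 11.62, 11.75 and 11.77 against 10.80, 10.64, 10.88 and 10.94 (0.90 ± 0.10). The groups stood 0.68 apart, more than the range within either. Adcy6, an adenylyl cyclase, rose by 0.82 and Akap9, an anchoring protein for PKA, by 0.91. The other tested probe set of Akap9 was not called (0.25). Prkaca, a catalytic subunit of PKA, had 8.81 ± 0.11 and 8.69 ± 0.27 (SD, n = 3 and 4) and was not called.

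Bcl2l11 encodes Bim, a BH3-only protein that triggers the mitochondrial death pathway, and it rose in the deathless line as well. It had 10.14, 10.94 and 11.07 in D- 24 h cells against 9.34, 9.69, 9.16 and 9.58 in untreated D- cells, without overlap, a change of 1.27 ± 0.22 (adjusted p = 1.1e-04). In WT cells the change was 2.90, and the difference of the responses, D- minus WT, was -1.62 ± 0.31 (adjusted p = 0.0012). The WT means were 11.95 ± 0.58 at 24 h and 9.06 ± 0.15 untreated (SD), against 10.71 ± 0.51 and 9.44 ± 0.24 in D- cells.

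Of 16 pro-apoptotic genes tested, 4 were called higher and 2 lower, and of 16 anti-apoptotic genes 4 were called higher and 3 lower (2 higher without D- untreated replicate 2). Over all genes 17.1% were higher and 17.6% lower, which in lists of this size is within 2 genes of each of these counts. Pdcd4, an inhibitor of translation initiation that is listed with the death genes, read 11.94, 12.66 and 12.64 after 24 h and 9.24, 9.47, 9.92 and 10.15 untreated (2.72 ± 0.25). The initiator caspase gene Casp8 rose by 0.64, and Bad, another BH3-only protein, by 0.32, a call that was lost on leaving out any of 5 of the 7 arrays. Bbc3, which encodes the BH3-only protein Puma, was lower in D- 24 h cells, where it lay under 5 on every array, by at least 0.11, and Cycs, the cytochrome c gene, fell by 0.65 ± 0.16. Among the survival genes, Cflar, the caspase-8 inhibitor FLIP, rose by 1.10 ± 0.19 and Mcl1, a BCL2 family guardian, by 0.62 ± 0.15. The other tested probe set of Cflar was not called (0.37). Mcl1 had 11.47, 11.84 and 11.78 in D- 24 h cells and 10.98, 10.79, 11.16 and 11.38 in untreated cells, so the nearest arrays of the groups were 0.09 apart. Bcl2 was at 5.46 ± 0.29 and 5.30 ± 0.21 (SD) and was not called.

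Of 6 CDK inhibitor and pocket protein genes tested, 3 were called higher and 0 lower. Cdkn1b, which encodes the CDK inhibitor p27, had 9.80, 10.49 and 10.48 in D- 24 h cells against 8.83, 9.33, 9.23 and 9.17 in untreated D- cells (1.12 ± 0.30, adjusted p = 0.006). Rbl2, the pocket protein p130 that holds E2F genes silent in resting cells, had 8.03, 9.48 and 9.42 against 6.75, 7.21, 7.39 and 7.38 (1.79 ± 0.32). In both genes D- 24 h replicate 1 was the lowest of the treated arrays and still above all untreated ones. Cdkn2d, the CDK4 inhibitor p19, was the other member called (0.78 ± 0.26), but its groups overlapped. Its call was lost without D- 24 h replicate 1 (change 0.55, adjusted p = 0.14), D- 24 h replicate 2 or D- untreated replicate 4.

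Of 16 G1 cyclin and E2F genes tested, 7 were called lower and 1, the kinase gene Cdk2, higher (median -0.45). Ccne1, the cyclin E that drives entry into S phase, read 8.73, 8.15 and 8.29 in D- 24 h cells and 10.37, 9.90, 10.53 and 10.52 in untreated cells (-1.94 ± 0.22, adjusted p = 7.0e-07). Ccne2 had 8.27, 7.59 and 7.57 against 9.49, 9.59, 8.73 and 9.25 (-1.45 ± 0.32). Skp2, the ubiquitin ligase subunit that marks p27 for destruction, fell by 1.31 ± 0.22. All treated arrays lay below all untreated arrays for these genes. The D-type cyclins did not pass the test, with 10.63 ± 0.27 and 10.98 ± 0.40 for Ccnd3 and 4.99 ± 0.17 and 5.02 ± 0.20 for Ccnd2 (SD).

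**Figure D3:**
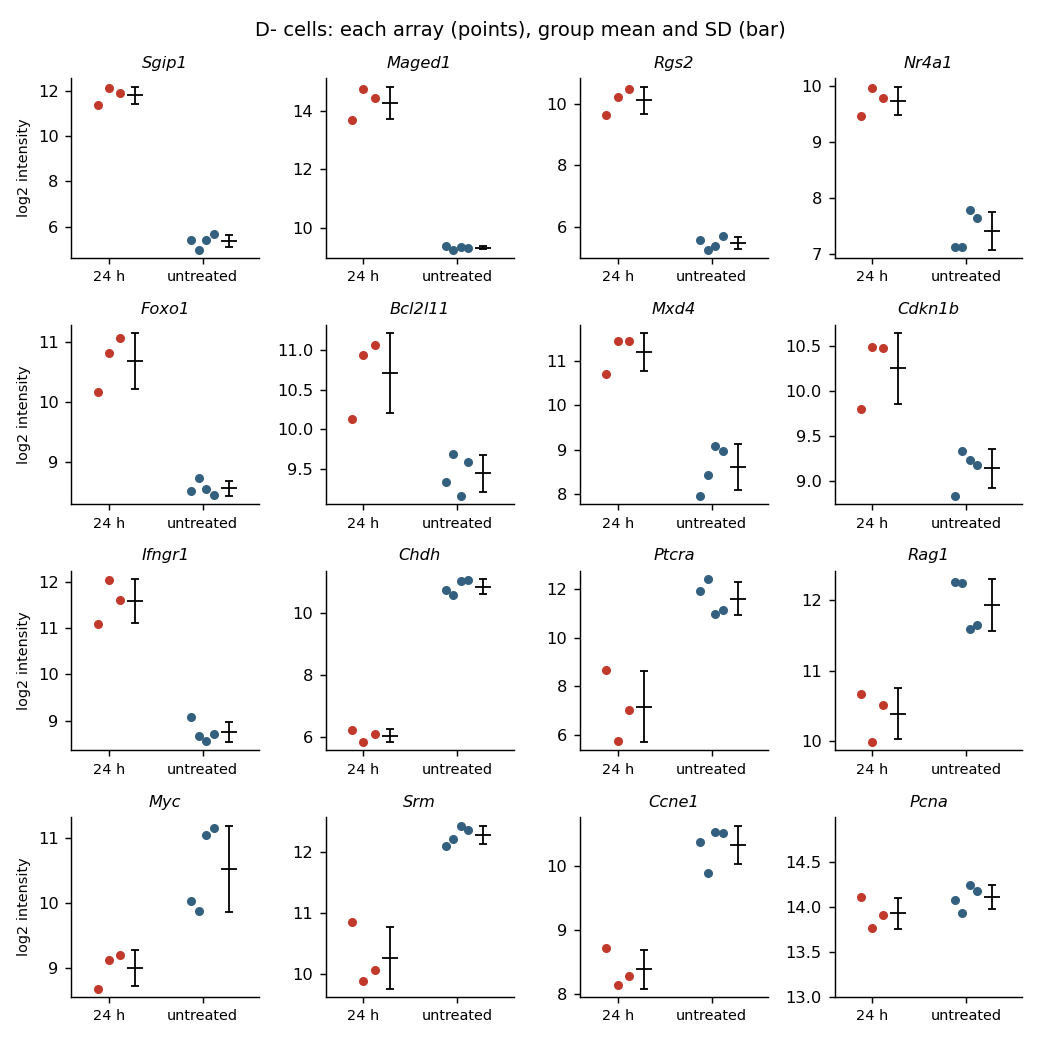
Log2 intensity of 16 genes on each array (points, D- 24 h in red on the left, D- untreated in blue on the right) with the group mean and SD (bars, n = 3 and 4). The groups stand apart in each panel but the last, where the replication clamp Pcna has 13.93 and 14.11.

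The genes of S phase and mitosis had lower counts, and these depended on the setting. Of 39 DNA replication genes tested, 2 were called higher and 6 lower with a median of -0.26, and of 41 mitosis genes 2 were called higher and 7 lower with a median of -0.19, shares close to or below the 17.1% and 17.6% of all genes. Pcna, the sliding clamp of DNA polymerases, was at 14.11, 13.77 and 13.91 after 24 h and 14.07, 13.93, 14.24 and 14.18 untreated, and Mki67, a marker of cycling cells, at 12.18, 12.30 and 12.47 and 12.63, 12.80, 12.36 and 12.25. Neither was called, and the groups overlapped. The counts of lower genes moved with single arrays. Without D- 24 h replicate 2, 3 replication genes and 1 mitosis gene were called lower, and without D- 24 h replicate 1, 13 replication genes were. Without D- untreated replicate 1, 4 mitosis genes were called lower. With array weights 20 replication and 11 mitosis genes were called lower, and on the side with more arrays alone 18 and 9, with medians of -0.36 for replication in both.

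Members that passed the test included Orc2, a subunit of the origin recognition complex, at -0.77 ± 0.12, and the replication initiator Mcm10 at -0.80 ± 0.22, whose adjusted p was 0.062 without D- 24 h replicate 2. Ccna2, which encodes cyclin A, had 11.11, 10.78 and 10.90 in D- 24 h cells and 11.84, 11.34, 11.67 and 11.54 in untreated cells (-0.67 ± 0.14, adjusted p = 7.8e-04). Smc4, a condensin subunit, went the other way, with 13.05, 13.67 and 13.54 against 12.40, 12.50, 12.29 and 12.49 (1.003 ± 0.14). The primase genes Prim1 and Prim2 also rose, by 0.54 and 0.42. Neither of these calls held without D- 24 h replicate 3, and that of Prim2 was also lost without any of 4 other arrays.

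The difference from the WT line was tested directly, as the 24 h change in D- cells minus that in WT cells. It was called for 916 genes (12.3%), 544 with a higher (7.32%) and 372 with a lower (5.00%) value in D-. Of the 39 replication genes 36 had a higher and 0 a lower value in D-, with a median difference of 1.47, beside a median change of -0.26 in D- and -1.92 in WT. Of the 41 mitosis genes 35 had a higher and 0 a lower value, with a median difference of 1.36. Pcna differed by 1.08 ± 0.15 (adjusted p = 9.1e-05), Ccna2 by 1.62 ± 0.20 and Aurkb, a mitotic kinase gene, by 2.16 ± 0.35. Leaving out each array in turn left 31 to 37 replication genes and 31 to 35 mitosis genes with a called difference. The count over all genes was 599 without WT 24 h replicate 2 and 1399 without WT 24 h replicate 1.

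**Figure D4:**
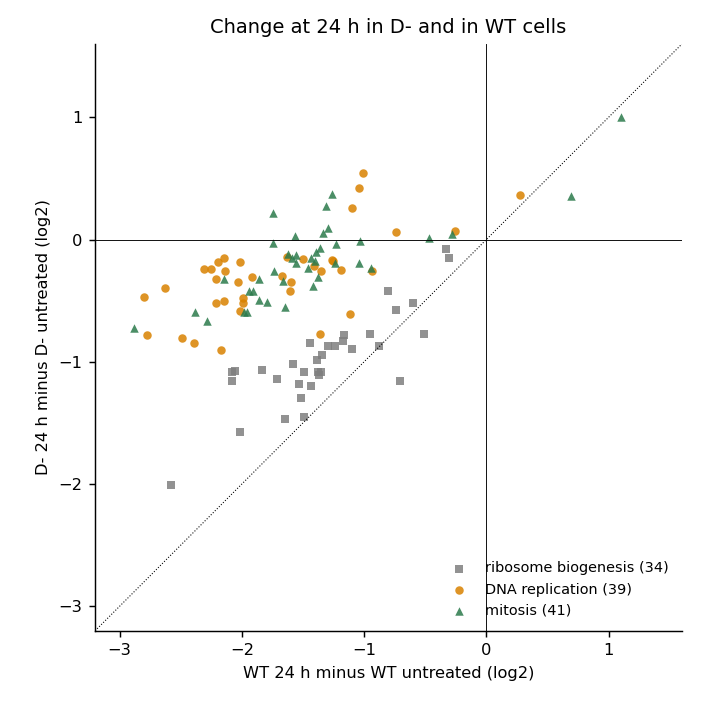
Change at 24 h in D- cells (D- 24 h minus D- untreated, log2) against the change in WT cells (WT 24 h minus WT untreated, log2) for each tested gene of 3 lists, with the dotted line at equal change. Replication and mitosis genes lie above the line for 39 of 39 and 39 of 41 genes, while ribosome biogenesis genes fell in both lines, with medians of -1.04 in D- and -1.37 in WT.

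MYC is the factor that drives growth and ribosome production in proliferating lymphocytes, and MXD4 is an antagonist that shares its partner MAX. Myc read 8.68, 9.12 and 9.19 in D- 24 h cells and 10.03, 9.87, 11.04 and 11.14 in untreated D- cells, a change of -1.52 ± 0.30 (adjusted p = 4.6e-04). Untreated replicates 3 and 4 were above replicates 1 and 2, and all treated arrays lay below all of them. Mxd4 rose, with 10.70, 11.45 and 11.44 against 7.97, 8.43, 9.09 and 8.98 (2.58 ± 0.26). Of its other probe sets, those at 2.53 and 2.75 were called and that at 0.36 was not. Max had 7.64, 6.05 and 7.29 against 8.54, 8.28, 8.20 and 7.72 and fell by 1.20 ± 0.41 (adjusted p = 0.029). That call was lost without D- 24 h replicate 2 (change -0.72, adjusted p = 0.24) and, with smaller moves of the value, without D- untreated replicate 1, 2 or 3.

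Ribosome biogenesis had the largest share of lower genes of all lists, 31 of 34 tested (28 without D- 24 h replicate 2), with 0 called higher and a median of -1.04. Srm, the spermidine synthase gene that was listed with them as a MYC target, read 10.85, 9.90 and 10.07 in D- 24 h cells and 12.11, 12.21, 12.44 and 12.36 in untreated cells (-2.01 ± 0.30, adjusted p = 2.4e-05). Polr1b, a subunit of RNA polymerase I, which transcribes ribosomal RNA, had 6.68, 5.90 and 6.05 against 7.74, 8.18, 7.44 and 7.78 (-1.58 ± 0.37). Treated arrays lay below untreated ones throughout, with replicate 1 the highest of them. Ppan and Rrp12, factors of pre-ribosome processing, fell by 1.47 and 1.45. At 2 h 7 and at 6 h 32 of these 34 genes were called lower, against the same untreated arrays. Of all 7435 genes, 985 were called lower at 2 h and 1161 at 6 h. By contrast, of 31 genes for the cytosolic ribosomal proteins themselves 2 were called higher and 3 lower, with a median of -0.02.

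Other gene groups of protein synthesis were lower too. Of 18 aminoacyl-tRNA synthetase genes, whose enzymes charge tRNAs with amino acids, 16 were lower (13 without D- 24 h replicate 3) and 0 higher (median -0.70), with Iars at -1.23 ± 0.17, Lars at -1.09 ± 0.16 and Yars at -0.83 ± 0.14. Of 20 translation initiation factor genes 14 were lower and 0 higher (median -0.45). The member that fell most was Eif4ebp1, itself a repressor of initiation, with 9.34, 8.78 and 8.02 in D- 24 h cells against 10.53, 10.70, 10.35 and 10.21 in untreated cells (-1.73 ± 0.30), followed by the factors Eif3b and Eif1a, each at -1.07. Their treated arrays were all below the untreated ones.

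Of 28 genes of nuclear pores and nuclear transport, 24 were lower (16 without D- 24 h replicate 2) and 0 higher (median -0.64), among them Xpot, the exporter of tRNAs, with 8.88, 8.41 and 8.40 against 10.09, 10.43, 9.90 and 10.31 (-1.62 ± 0.20). Ipo5, an importin, fell by 1.04 and Rcc1, the exchange factor for Ran, changed by -0.9996. Of 22 heat shock and chaperone genes, 17 were lower and 1 higher (median -0.49). The mitochondrial chaperones Hspa9 and Hspd1 fell by 1.06 ± 0.10 and 0.88 ± 0.11. Hspd1 had 13.14, 13.10 and 13.18 in D- 24 h cells and 14.00, 13.83, 14.13 and 14.10 in untreated ones, so the range within each group was at most 0.31 and the gap between them 0.65.

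Of 36 mitochondrial ribosomal protein genes 16 were lower and 1 higher, of 28 spliceosome genes 11 were lower and 0 higher, and of 31 proteasome genes 10 were lower and 1 higher. Those 3 counts of lower genes became 7, 4 and 6 without D- 24 h replicate 2, and 23, 14 and 14 without D- 24 h replicate 1. Over all genes 17.6% were called lower with no array left out. In the unfolded protein and ATF4 stress list, 8 of 22 were lower and 2 higher. The count of lower genes was 1 without D- 24 h replicate 2. The 2 that rose were Eif2ak3, the stress sensor kinase PERK, with 12.09, 12.40 and 12.68 in D- 24 h cells against 9.39, 9.63, 9.43 and 9.82 in untreated cells (2.82 ± 0.16), and Edem1, a factor of protein degradation from the endoplasmic reticulum (1.26 ± 0.16). The nearest arrays of the groups were 2.27 and 1.05 apart.

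**Figure D5:**
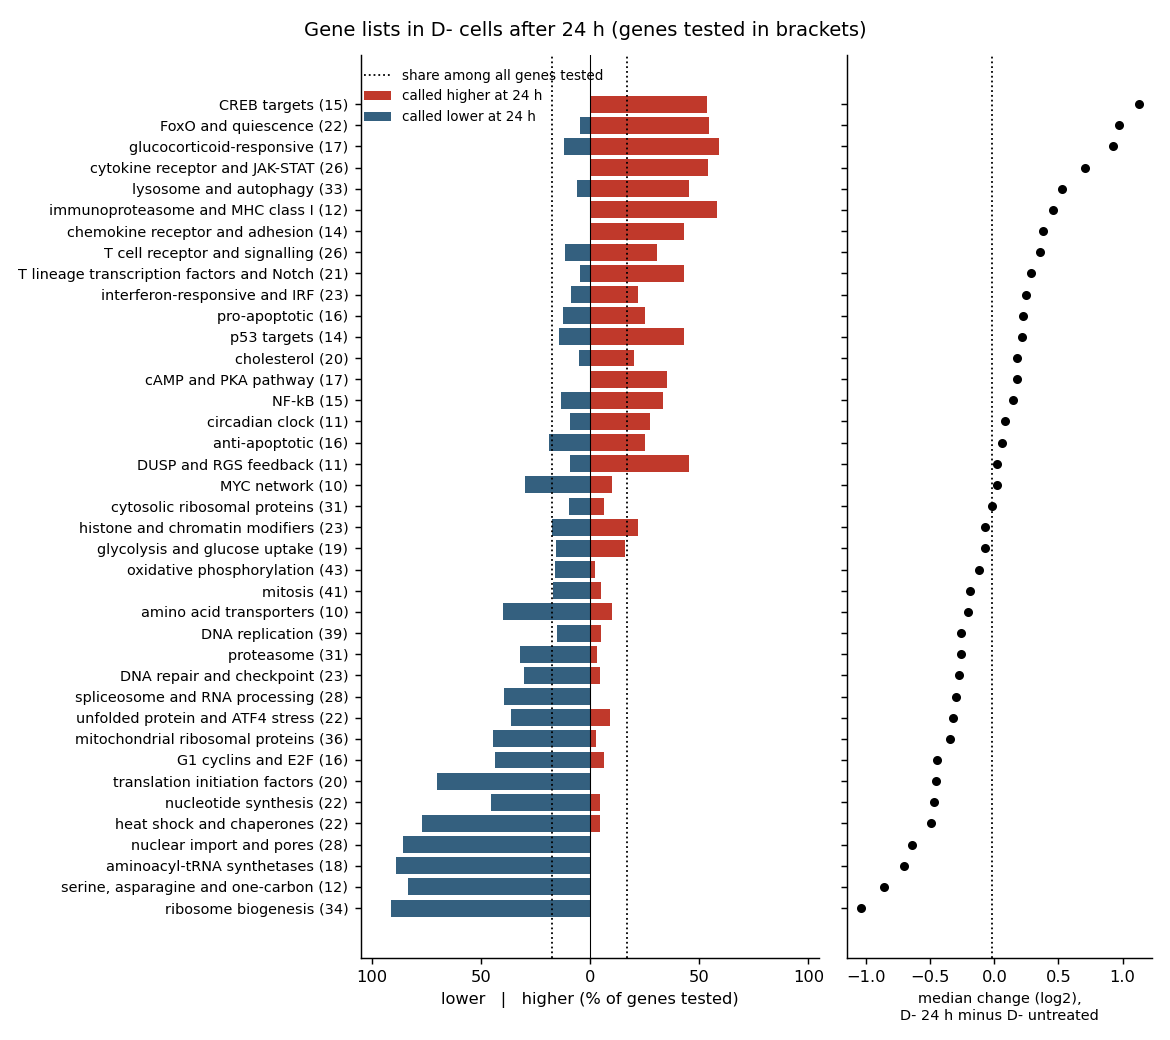
Left, for each list with at least 10 tested genes, the share of them called higher (red, to the right) or lower (blue, to the left) at 24 h in D- cells, with the shares over all genes, 17.1% and 17.6%, as dotted lines. Right, median change of each list (log2) with that of all genes, -0.02, dotted; CREB targets stand at the top with 1.12 and ribosome biogenesis at the bottom with -1.04.

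Serine is a source of one-carbon units for nucleotides and of other amino acids. Of 12 tested genes of serine, asparagine and one-carbon metabolism, 10 were lower and 0 higher (median -0.86). Shmt2, which passes the one-carbon unit of serine to folate in mitochondria, had 10.92, 10.17 and 9.99 in D- 24 h cells and 12.07, 12.14, 12.23 and 12.32 in untreated cells (-1.83 ± 0.25, adjusted p = 6.0e-06). Phgdh, the first enzyme of serine synthesis, read 11.41, 10.82 and 10.83 against 12.19, 12.52, 12.11 and 12.06 (-1.20 ± 0.28), and the mitochondrial folate enzyme Mthfd2 fell by 1.14 ± 0.20. In each case replicate 1 was the treated array nearest to the untreated ones, without reaching them.

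Of 22 nucleotide synthesis genes 10 were lower and 1, Dut, higher (median -0.47). Ppat, the first committed step of purine synthesis, had 8.76, 8.43 and 8.65 against 9.89, 9.74, 10.11 and 10.26 (-1.39 ± 0.19), and Ctps, which makes CTP, had 9.38, 8.99 and 8.97 against 10.38, 10.51, 10.55 and 10.52 (-1.38 ± 0.17). The treated arrays again lay below all untreated ones. Gart, a purine enzyme, and Mthfd1, its cytosolic folate supplier, fell by 1.23 and 1.26. The glycine transporter gene Slc6a9 fell by 1.31 ± 0.27. In polyamine metabolism the synthase Srm fell, as above, while Oaz2, an antizyme that blocks polyamine synthesis, and Sat1, the acetyltransferase that degrades polyamines, rose by 1.27 and 1.18.

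With no array left out, oxidative phosphorylation and glycolysis genes were called at shares below the 17.1% higher and 17.6% lower of all genes. Of 43 oxidative phosphorylation genes 1 was higher and 7 lower (median -0.12), and 3 were lower without D- 24 h replicate 2 and 11 without D- 24 h replicate 1. Of 19 glycolysis genes 3 were higher and 3 lower. Slc2a3, the glucose transporter GLUT3, had 10.68, 11.22 and 10.51 in D- 24 h cells and 8.90, 8.68, 7.83 and 8.11 in untreated cells (2.42 ± 0.31). Lactate dehydrogenase, Ldha, rose by 0.70 ± 0.15, while the phosphofructokinase gene Pfkp read 9.01, 10.15 and 9.10 against 10.75, 10.40, 10.68 and 10.45 and fell by 1.15 ± 0.24. Pfkp was below every untreated array on all 3 treated ones, and replicate 2 was the highest of these. Of 20 cholesterol genes 4 were higher and 1 lower, among them the sterol reductase gene Tm7sf2 (1.20 ± 0.20).

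Lysosomes and autophagy recycle proteins and lipids. Of 33 lysosome and autophagy genes 15 were higher and 2, Ctsc and Atp6v1h, lower (median 0.53), of which neither stayed called without D- untreated replicate 2 or D- 24 h replicate 2. Without D- 24 h replicate 2, 12 were higher. Ctse, the protease cathepsin E, had 12.74, 13.05 and 13.05 in D- 24 h cells and 11.23, 11.21, 11.06 and 10.95 in untreated cells (1.83 ± 0.11, adjusted p = 6.2e-11). The other tested probe set of Ctse was not called (0.28). Lamp2, a lysosomal membrane protein, read 11.87, 11.83 and 12.08 against 10.64, 11.12, 10.27 and 10.52 (1.29 ± 0.18), and Npc2, a cholesterol carrier of the lysosome, rose by 1.17 ± 0.10. None of the treated arrays overlapped the untreated ones. In D- cells Ctse was not called at 2 h (-0.09) and was called at 6 h (0.93), with the untreated arrays shared by all 3 times.

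FoxO factors maintain quiescence in lymphocytes and switch on several of the genes in this group. Of 22 tested genes of the FoxO and quiescence list 12 were higher and 1, Klf7, lower (median 0.98). Foxo1 itself had 10.17, 10.81 and 11.06 in D- 24 h cells against 8.52, 8.74, 8.55 and 8.45 in untreated cells (2.11 ± 0.20, adjusted p = 4.5e-08). Ccng2, an atypical cyclin found in resting cells, had 10.17, 11.43 and 11.48 against 8.31, 8.29, 8.80 and 8.65 (2.52 ± 0.39). The nearest arrays of the groups were 1.42 apart for Foxo1 and 1.37 for Ccng2. Foxo3 rose by 1.83, the antiproliferative genes Btg1 and Tob2 by 1.99 and 1.77, and Txnip, an inhibitor of glucose uptake and thioredoxin, by 2.21 ± 0.44. Of 14 p53 target genes 6 were higher and 2 lower, beside 17.1% higher and 17.6% lower of all genes. Gadd45a, a growth arrest gene, had 11.82, 11.04 and 11.28 against 8.98, 8.88, 7.78 and 7.89 (2.99 ± 0.27), and Ddit4, an inhibitor of mTOR signalling that glucocorticoids and cAMP also induce, rose by 2.06 ± 0.32. Zmat3, a p53-induced RNA-binding protein, fell by 1.21 ± 0.21.

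Glucocorticoids, like cAMP, kill immature T cells, and of 17 tested genes known to respond to them 10 were higher and 2, Ets2 and Fkbp4, lower (median 0.92). Several members, Rgs2, Dusp1 and Per1 among them, are also in the CREB target list. The other tested probe set of Fkbp4 was not called (-0.09). Nr3c1, the glucocorticoid receptor gene, had 12.46, 13.18 and 13.12 in D- 24 h cells and 10.90, 11.34, 11.73 and 11.82 in untreated cells (1.47 ± 0.24, adjusted p = 4.8e-05). Sgk1, a serum and glucocorticoid induced kinase, read 9.87, 10.65 and 10.61 against 8.95, 8.04, 7.27 and 7.38 (2.47 ± 0.34). Tsc22d3, the glucocorticoid-induced leucine zipper gene, had 10.08, 10.61 and 10.38 against 9.23, 9.43, 9.67 and 10.02 (0.77 ± 0.19). The nearest arrays of the groups were 0.65 and 0.92 apart for Nr3c1 and Sgk1, and 0.07 for Tsc22d3.

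Cytokine receptors signal through JAK kinases and STAT factors. Of 26 cytokine receptor and JAK-STAT genes 14 were higher and 0 lower (median 0.70). Ifngr1, a chain of the interferon gamma receptor, had 11.08, 12.03 and 11.61 in D- 24 h cells against 9.08, 8.67, 8.58 and 8.71 in untreated cells (2.81 ± 0.19, adjusted p = 4.5e-10). Jak2, the kinase bound to that receptor, had 9.96, 10.95 and 10.80 against 8.08, 8.44, 7.59 and 7.82 (2.59 ± 0.20), and Ifnar1, a chain of the type I interferon receptor, rose by 2.14 ± 0.18. The lowest treated array lay above the highest untreated one by 2.00, 1.52 and 1.77. Il12rb1, an interleukin 12 receptor chain, rose by 2.02 ± 0.30.

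Of 23 interferon-responsive and IRF genes, 5 were higher and 2 lower (median 0.25), beside 17.1% higher and 17.6% lower of all genes. Irf8, a transcription factor of the interferon regulatory family, had 11.63, 11.65 and 11.74 in D- 24 h cells and 7.10, 7.67, 7.89 and 7.36 in untreated cells (4.17 ± 0.35, adjusted p = 8.9e-09), the highest change of the list. Mx1, an antiviral GTPase, rose by 1.64 ± 0.24 in D- and was not called in WT (0.03), a difference of 1.61 ± 0.34 (adjusted p = 0.003). Ifi204, an interferon-induced DNA sensor, read 8.39, 4.79 and 5.25 against 10.33, 10.45, 7.17 and 7.58 and fell by 2.74 ± 0.94. Its groups overlapped, and the call was lost without D- untreated replicate 1 or 2 or D- 24 h replicate 2 or 3 (adjusted p = 0.092 to 0.17). Of 12 immunoproteasome and MHC class I genes 7 were higher and 0 lower (median 0.46), with Tapbp and Tap1, which load and carry peptides for MHC class I, at 1.24 ± 0.24 and 0.998 ± 0.28.

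Ptcra and the recombinase genes, which act in immature T cells, were lower. Ptcra, the pre-T cell receptor alpha chain, had 8.69, 5.77 and 7.02 in D- 24 h cells and 11.93, 12.42, 10.99 and 11.15 in untreated cells (-4.46 ± 0.47, adjusted p = 2.7e-07). Rag1 and Rag2 encode the enzyme that assembles T cell receptor genes. Rag1 had 10.67, 9.98 and 10.52 against 12.25, 12.24, 11.58 and 11.65 (-1.54 ± 0.27), and Rag2 had 6.22, 6.20 and 6.87 against 9.20, 9.10, 8.55 and 9.24 (-2.59 ± 0.27). No treated array reached the untreated range, although the 3 treated Ptcra values were themselves spread over 2.93. Rag1 had means of 8.15 ± 0.32 at 2 h, 7.84 ± 0.42 at 6 h and 10.39 ± 0.36 at 24 h (SD). In WT cells its 24 h change was -4.43, and the D- minus WT difference was 2.89 ± 0.38 (adjusted p = 4.0e-05).

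Of 26 T cell receptor and signalling genes 8 were higher and 3, the recombinase genes and Ptcra, lower. Over all genes 17.1% were higher and 17.6% lower. Ptpn22, a phosphatase that damps T cell receptor signalling, had 11.34, 11.68 and 11.85 against 8.64, 8.65, 8.61 and 8.44 (3.04 ± 0.17), and its rise was smaller than in WT cells by 1.14 ± 0.24 (adjusted p = 0.0028). Txk, a Tec family kinase, was under 5 on every untreated array and read 8.20, 8.74 and 6.17 after treatment, at least 2.71 higher. The receptor chains Cd3g and Cd3d and the kinase Zap70 rose by 1.09, 0.91 and 1.21. The other tested probe set of Zap70 was not called (0.14). Of 21 T lineage transcription factor and Notch genes 9 were higher and 1, Notch3, lower. Gata3, a regulator of T cell fate, had 11.52, 12.36 and 12.51 in D- 24 h cells and 9.49, 9.40, 10.43 and 10.16 in untreated cells (2.26 ± 0.26), and Ets1 rose by 1.71 ± 0.18. The nuclear factor Tox and the orphan receptor Rora rose by 2.52 ± 0.43 and 2.20 ± 0.52, with replicate 1 of the treated arrays the lowest in both.

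Of 8 tested genes of granzymes and other cytotoxic T cell products, 5 were higher and 0 lower. Gzmb, the granule protease granzyme B, had 11.20, 13.26 and 11.90 in D- 24 h cells and 10.91, 4.46, 5.92 and 6.00 in untreated cells (5.30 ± 1.07, adjusted p = 5.6e-04). Untreated replicate 1 was near the treated range and far above the other 3 untreated arrays, and the change without it was 6.66. Srgn, the proteoglycan serglycin that packs granules, had 13.52, 14.36 and 14.43 against 10.42, 10.47, 10.69 and 10.73 (3.53 ± 0.21), and Gzma rose by 1.43 ± 0.20. Ctla4, an inhibitory receptor, had 7.92, 8.61 and 7.68 against 5.45, 4.73, 5.51 and 5.55 (2.76 ± 0.39). In WT cells Ctla4 changed by 4.80, and the D- minus WT difference was -2.04 ± 0.55 (adjusted p = 0.017), with an adjusted p of 0.066 without WT 24 h replicate 2.

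Selplg, the ligand of P-selectin, had 12.20, 12.31 and 12.44 in D- 24 h cells and 9.64, 9.86, 9.82 and 9.60 in untreated cells (2.59 ± 0.20), and the integrin chain gene Itgb2 rose by 1.53 ± 0.13, within 6 higher and 0 lower of 14 chemokine receptor and adhesion genes. Pecam1, an adhesion molecule fixed here as an endothelial marker, rose by 2.12 ± 0.19, with 8.82, 8.83 and 8.88 against 6.75, 6.89, 6.41 and 6.85. It was the 1 stromal and endothelial marker of 6 on the array that reached 5. The part of such cells in these values was not tested.

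Feedback genes of MAP kinase and G protein signalling, 5 of 11 higher and 1 lower, included Dusp10, a phosphatase for the stress kinases p38 and JNK, with 10.47, 11.41 and 11.58 against 6.99, 7.80, 8.29 and 8.04 (3.37 ± 0.31). In the NF-kB list 5 of 15 were higher and 2 lower, and 2 were higher without D- 24 h replicate 3. Beside the counts of both lists, 17.1% of all genes were higher and 17.6% lower. Nfkbie, an inhibitor of NF-kB, rose by 2.48 ± 0.31, with 7.54, 7.31 and 8.25 against 4.81, 5.43, 5.00 and 5.65, and was not called in WT (0.58), a difference of 1.90 ± 0.44 (adjusted p = 0.006). Nfil3, a leucine zipper factor tied to the clock and to lymphocyte fate, rose by at least 3.16 from an untreated mean under 5.

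The genes with the largest called differences between the lines at 24 h are given with the means of all 4 groups. Chst1, a sulfotransferase, had means of 8.92 in D- 24 h cells and 4.54 in untreated D- cells, against 4.59 and 3.67 in WT, a difference of 3.46 (adjusted p = 5.4e-05). Chn2, a GTPase activating protein for Rac, had 7.56 and 3.57 in D- and 3.52 and 3.57 in WT (4.04). Gli1, a transcription factor of Hedgehog signalling, had 6.63 and 4.27 in D- and 2.78 and 3.79 in WT (3.36). Where a mean lies under 5 such a difference is a fitted value.

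In the other direction, Ctla2a and Ctla2b, which encode small inhibitors of cysteine proteases, had 5.75 and 3.28 in D- 24 h cells and 11.50 and 9.79 in WT 24 h cells, with all untreated means under 5. Their differences were -4.89 and -6.47 (adjusted p = 3.0e-06 and 2.3e-10). Pparg, a nuclear receptor of lipid metabolism, stayed under 5 in D- (3.73 at 24 h, 3.75 untreated) and had 7.93 in WT 24 h cells. Sgip1, the gene that rose most in D-, rose further in WT, by 9.04, a difference of -2.62 ± 0.41 (adjusted p = 1.9e-04). Lgals9 rose further in D-, by 2.04 ± 0.24 more than in WT (adjusted p = 1.5e-05). Chdh and Apcdd1 fell further in D-, with differences of -1.63 and -1.96.

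Shares of promoters with a motif were compared between called genes and all genes, with no test. The full element TGACGTCA stood, on either strand, within the 250 bases before the start of 3.36% of 1041 genes called higher, 2.15% of 1070 called lower and 3.03% of all 6109 tested genes with a window. Its short form TGACG, which the full form contains, stood in 32.7%, 33.9% and 32.7%. The E-box CACGTG, which MYC and MAX bind, stood in 9.61%, 12.2% and 10.5%. The FoxO sequence TGTTTAC stood in 2.79%, 1.96% and 2.46%, and an E2F sequence, TTTCCCGC or TTTGGCGC, in 2.79%, 3.74% and 3.32%. A gene counted where any of its windows held the sequence. Counted by single window instead, over all 32851 RefSeq windows of that length, the full and short elements stood in 1.55% and 17.8%. Shares of genes and of single windows are thus not comparable. Among the 344 genes with a window that were called at least 2-fold higher, the full element stood in 2.62% and the short form in 26.2%, the second below the share of all genes. A match describes letters in the window and not a bound site.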

How the data were processed

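RNA of S49 cells was measured on 26 single-colour Affymetrix arrays, 3 or 4 for each of 8 groups. The deposited values are intensity on a linear scale, which the authors made with GCRMA per the submitters' processing notes. The version of GCRMA and whether arrays were normalised jointly could not be read from the labels. It corrects background by probe sequence, which compresses values near the floor. Descriptions and source names set the groups. The titles of all treated WT samples, those at 24 h among them, say untreated instead. Of 22690 probe sets, 64 were controls, 20380 had 1 gene symbol, 691 several and 1555 none in the platform annotation. Gapdh was read only from its control probes.

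From the deposited intensity, log2 was taken with no pseudocount, and 12724 probe sets at log2 5 (intensity 32) or more on at least 3 arrays were tested. limma 3.58.1 in R 4.3.3 fitted 8 group means to all 26 arrays (lmFit, eBayes, 18 residual degrees of freedom), with no block. The D- 24 h change and its difference from the WT change were contrasts of this fit, adjusted by Benjamini-Hochberg. At an unadjusted p under 0.05, 5300 probe sets passed in D- cells. A gene with several probe sets was read from the one of highest mean. Where 1 group mean lay under log2 5, the change is given as the brighter mean minus 5, written "at least". The fit was tested on simulated data.

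The genes compared and the 47 gene lists were chosen with earlier results of these data known. Genes were named by rule, namely the 15 highest and 15 lowest called changes, up to 4 called members per list, the 8 highest and 8 lowest differences and fixed checks such as Pcna and Myc. Genes named because they made up a small count were chosen after their values were seen. The alternatives tried are given with the dependence on processing, and the division of arrays into 2 sides came from the data.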

Additional observations from a re-analysis of the deposited data

Results flagged for a closer look

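Among the 4 untreated D- arrays, 5 of the 162 genes named here had 1 array far from the other 3, where chance gives about 1 in 20 such groups. The gene Ccnb1ip1 read 7.21, 6.53 and 7.44 in D- 24 h cells and 9.60, 10.01, 9.53 and 9.58 in untreated cells, with untreated replicate 2 at 10.01. In the same array Ctla4 was at 4.73 and Mthfd2 at 11.01, below the other untreated arrays. Lmna was at 3.34 on untreated replicate 3, with all untreated arrays under the limit of 5, and Tox was at 6.02 on untreated replicate 1. The groups of D- 24 h and untreated arrays did not overlap in any of these genes.

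The 24 h change differed between the lines (D- minus WT, adjusted p under 0.05 in the limma fit) for 43 of the 162 named genes. Over all genes tested the share was 12.3%. Some of the 43 were named because their difference was among the largest, so their count is no measure of how common differences are. Values with a group mean under 5 are fitted values. Cell cycle and replication genes were higher in D- relative to WT: Ccna2 by 1.62, Ccnd3 by 1.07, Ccne2 by 2.18, Cdk2 by 1.20, Skp2 by 1.48, Aurkb by 2.16 and Mki67 by 0.85. The same direction held for Pcna by 1.08, Mcm10 by 1.68, Orc2 by 0.59, Prim1 by 1.56, Prim2 by 1.47 and Dut by 1.14, and for the checkpoint and repair genes Chek1 by 2.39 and Brca1 by 1.59. Of the metabolic, translation and chaperone genes, the differences were 1.09 for Mthfd2, 0.81 for Yars and 0.72 for Fkbp4. Other genes with a higher value in D- were Chn2 (4.04), Chst1 (3.46), Gli1 (3.36), Rag1 (2.89), Lgals9 (2.04), Lmna (2.04), Nfkbie (1.90), Mx1 (1.61) and Nr4a1 (1.49). Genes with a lower value in D- were Ctla2b (-6.47), Ctla2a (-4.89), Pparg (-3.95), Crem (-2.73), Sgip1 (-2.62), Ets2 (-2.42), Ctla4 (-2.04) and Apcdd1 (-1.96), with smaller differences for Chdh (-1.63), Bcl2l11 (-1.62), Klf7 (-1.51), Inafm2 (-1.35), Nrp1 (-1.28), Zmat3 (-1.16), Ptpn22 (-1.14) and Xpa (-0.84). The calls of Crem, Ccnd3, Mki67, Orc2, Mthfd2, Fkbp4, Ctla4 and Nrp1 were lost without WT 24 h replicate 2 (adjusted p = 0.051 to 0.13). Those of Ccnd3, Fkbp4 and Orc2 were also lost without D- 24 h replicate 1, and those of Fkbp4, Nrp1 and Orc2 without WT 24 h replicate 3. Those of Nrp1 and Orc2 were lost without several other arrays too (adjusted p = 0.057 to 0.10).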

How the results depend on the processing

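The count of probe sets called at 24 h in D- cells (4250, of 2581 genes) stayed between 3676 and 5265 under the 11 other settings run on arrays of both sides or of the larger side: moderated variance with trend, array weights, only the 7 arrays compared, added quantile normalization, median centring, other filters on dim probe sets, and blocks. On the smaller side alone, chosen after seeing the data, 826 probe sets and 520 genes were called, and 5 and 4 for the difference between lines, with 1 treated array against 2 untreated ones in each line. Leaving out 1 array gave 3084 to 4460 probe sets and 1893 to 2713 genes. The D- minus WT difference, called for 1500 probe sets and 916 genes, was called for 3084 and 1826 with array weights, 2565 and 1585 with the sides as a block, 2277 probe sets on the larger side alone, and 962 to 2352 probe sets and 599 to 1399 genes with 1 array left out. With the replicate block, 4848 probe sets and 2943 genes were called in D- cells, and 2139 and 1310 for the difference; deviations of same-numbered arrays correlated at 0.37, -0.32 and 0.10, so not every pair deviated together, although replicate 1 of all 8 groups lay on the smaller side. Of 151 named genes called in D- cells, 139 stayed called under every setting but the smaller side alone, whose few arrays ended 67 calls, and 12 lost the call under at least 1 other. Of 118 other probe sets of the named genes, 97 had the gene's call, 0 the opposite one, and 21 differed in whether they were called. Among genes that were not called, the sign changed for Ccnd2 with array weights (0.0085), for Prkaca, Bcl2 and Mki67 on the larger side alone (-0.057, -0.14 and 0.082), and for Pcna and Pparg on the smaller (0.11 and 0.026). With 1 array left out, values ran from -0.12 to 0.070 for Ccnd2, -0.045 to 0.029 for Pparg, -0.0019 to 0.25 for Bcl2 and -0.0016 to 0.59 for Pde4b. The cause of these moves was not tested. Group sizes of 3 and 4 arrays limit the precision, and signals under 5 give bounds only.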

Other observations

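Of 23 DNA repair and checkpoint genes, 1 was called higher and 7 lower after 24 h (3 lower without D- 24 h replicate 2), with a median change of -0.28, beside 17.1% higher and 17.6% lower of all genes. The D- minus WT difference was called for 14 of them, higher in D- for 13, with a median of 0.71, beside 12.3% called over all genes. Chek1, the checkpoint kinase that halts division when replication stalls, had means of 8.70 ± 0.25 in D- 24 h cells and 9.11 ± 0.27 in untreated D- cells, against 6.46 ± 1.05 and 9.26 ± 0.23 in WT (SD), a difference of 2.39 ± 0.42 (adjusted p = 5.5e-04). Brca1, a factor of recombinational repair, differed by 1.59 ± 0.29 (adjusted p = 8.5e-04) and was not called in D- cells (-0.29). Xpa, which recognises damage in nucleotide excision repair, was the member that rose, by 0.67 ± 0.14, and the 1 whose difference was lower in D- (-0.84 ± 0.20, adjusted p = 0.007). Of 23 genes of histone and chromatin modifiers 5 were higher and 4 lower in D- cells (median -0.07; 2 lower without D- untreated replicate 1 or D- 24 h replicate 3, and 1 without D- 24 h replicate 2), and 12 had a called difference, all higher in D- (median 0.65).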
